A study of Drosophila melanogaster with 6 samples.

Results

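Transcripts of 10 genes that make, load, take up, break down and sense γ-aminobutyric acid (GABA) were compared in fly heads, Kdm3 KO against the control stock wBerlin. The genes were chosen by their FlyBase symbols, Gad1, VGAT, Gat, Gabat, Ssadh, Rdl, Lcch3, GABA-B-R1, GABA-B-R2 and GABA-B-R3, and all 10 were found among the 17753 genes listed. The samples were whole heads of adult Drosophila melanogaster in 2 groups, a knockout of Kdm3 (a JmjC-domain histone demethylase) and wBerlin, a laboratory stock, with 3 libraries each. Each library was made from 50 pooled heads after removal of ribosomal RNA, and the flies were 2 to 7 days past eclosion, reared at 25 °C with 70% humidity. The sources used here do not give the sex of the flies, how the knockout allele was made or other alleles it carries, so other differences between the stocks cannot be told apart from the loss of Kdm3. The labels call the replicates biological but do not say whether they came from separate crosses or vials, and p-values measure the spread between these libraries only.

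GABA is the main fast inhibitory transmitter of the fly brain. Neurons make it from glutamate with the decarboxylase Gad1 and load it into synaptic vesicles with VGAT. After release it is cleared by the membrane transporter Gat, which in the fly brain is found mainly on astrocyte-like glia, and is broken down in mitochondria by the transaminase Gabat and the dehydrogenase Ssadh to succinate. It acts on chloride channels built from subunits such as Rdl and on G protein-coupled GABA-B receptors, which have been linked to behavioural responses of flies to alcohol, a subject of the study.

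The libraries held 25571878, 19850981 and 23926397 counts in Kdm3 KO replicates 1, 2 and 3 and 28237382, 27468630 and 21935654 counts in wBerlin replicates 1, 2 and 3. Kdm3 itself was at 3.86, 0.642 and 0.71 CPM (counts scaled to library size by TMM) in the Kdm3 KO libraries, against 32.5, 30.1 and 28.7 CPM in wBerlin, a log2 fold change of −4.09 (Kdm3 KO over wBerlin, SE 0.49, adjusted p = 0.00344), so its transcript fell as the label states. Kdm3 KO replicate 2 stood apart from the other 5 libraries on the first principal component (44.1% of the variance). It held the highest levels of the flight muscle genes TpnC4, Act88F and fln (87.8, 1276 and 14.4 CPM, against 0.795 to 2.26, 23.8 to 247 and 0.438 to 1.01 CPM in the other 5). The summed level of the 10 muscle markers was 24419 CPM in that library, inside the range of the others (15599 to 37090 CPM), with bt, a chromosome 4 gene, at 0 in all 6. The 10 gut markers summed to 141 CPM there, against 13 to 28.3 CPM in the other 5, with none at 0 in all 6. With TMM scaling the sum of 10 neuron markers in Kdm3 KO replicate 2, 5806 CPM, was the lowest of the 6 libraries. Those sums were 5806 to 6576 CPM in Kdm3 KO and 5920 to 7636 CPM in wBerlin, and no neuron marker was at 0. All 10 had a negative log2 fold change (median −0.10), where 56.4% of all tested genes had a positive one, and 0 were called. The rank of Kdm3 KO replicate 2 depends on the scaling. TMM multiplied the size of that library by 1.098 and those of the other 5 by 0.942 to 0.997. In wBerlin, replicate 1 held the highest neuron marker sum, 7636 CPM. It also held the lowest muscle marker sum of that group, 19647 CPM, against 29745 and 37090 CPM in replicates 2 and 3.

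None of the GABA genes passed the test. Of the 10, 9 could be tested, and 0 were higher and 0 lower in Kdm3 KO at an adjusted p under 0.05 (edgeR's quasi-likelihood test), where 3.07% of the 14069 tested genes were called. Of all tested genes 303 (2.15%) were higher and 129 (0.917%) lower, against 396 and 68 with scaling to neuron markers. At an unadjusted p under 0.05 there was 1 of 9, Ssadh, against 14.6% of all tested genes. DESeq2 also called 0 of the 9 (6.57% of all genes), and so did limma voom. For 0 of the 9 did the 3 libraries of one genotype lie wholly outside those of the other, against 18.7% of all tested genes. The median log2 fold change (Kdm3 KO over wBerlin) was 0.08 over the 9 genes and 0.04 over all tested genes, and 6 of the 9 were positive, as were 56.4% of all tested genes. The 95% intervals of the 9 lay between 0.799-fold and 1.47-fold. Each of the 9 had 771 to 22092 counts per library, and the spread between libraries was 2.5 to 15.4% (coefficient of variation) in Kdm3 KO and 6.56 to 15.4% in wBerlin.

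**Figure D1:**
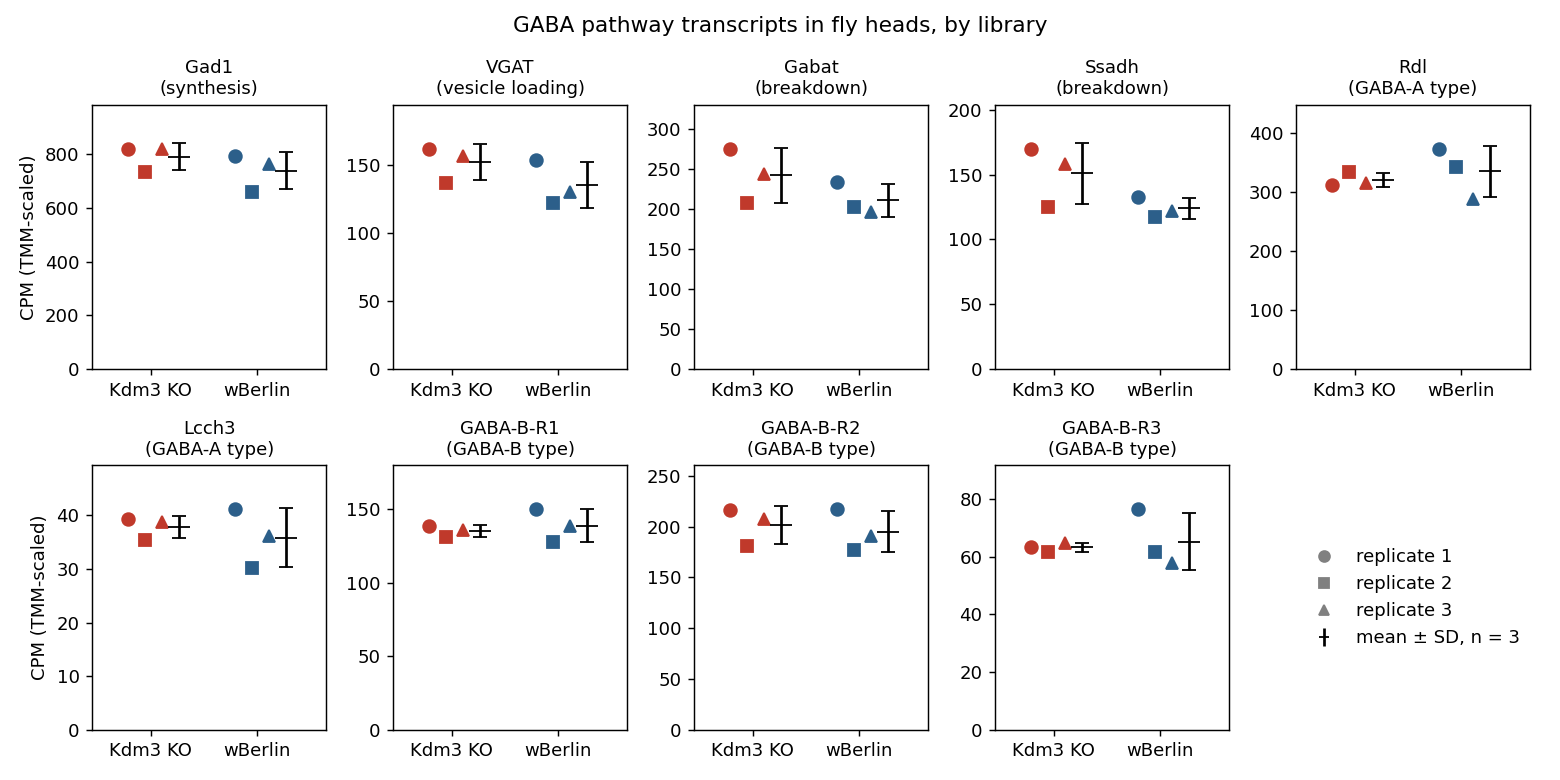
Level of each tested GABA gene in CPM, scaled by TMM, in each library of Kdm3 KO (left, red) and wBerlin (right, blue), with the replicate number as the symbol and the mean ± SD as the black bar (n = 3). In all 9 panels the groups overlap, and in 8 of them, all but Rdl, replicate 2 (square) is the lowest of the Kdm3 KO libraries. That rank depends on the scaling. On total counts replicate 2 was the lowest of the Kdm3 KO libraries only for Gabat and Ssadh (227 and 137 CPM). It was then the highest for GABA-B-R1 and GABA-B-R3 (144 and 67.8 CPM).

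For synthesis the fold change was small and did not pass the test. Gad1 (FBgn0004516, chromosome arm 3L, 4074077 to 4088744, BDGP6) was at 820, 733 and 820 CPM in Kdm3 KO replicates 1, 2 and 3, against 793, 660 and 762 CPM in wBerlin. In 2 Kdm3 KO libraries it lay above every wBerlin library, while replicate 2 lay within the wBerlin range. The means were 791 ± 50.3 and 738 ± 69.9 CPM (SD, n = 3 each), and the log2 fold change was 0.10 (SE 0.12, 95% interval −0.16 to 0.36, adjusted p = 0.777). Its direction turned without wBerlin replicate 2 (−0.02).

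For vesicle loading the fold change was positive and did not pass the test. VGAT (FBgn0033911, arm 2R, 14198478 to 14201249), the transporter that marks GABA-releasing terminals, was at 162, 137 and 157 CPM in Kdm3 KO, against 154, 122 and 130 CPM in wBerlin. The groups overlapped through Kdm3 KO replicate 2 and wBerlin replicate 1. The log2 fold change was 0.16 (SE 0.11, 95% interval −0.09 to 0.42, adjusted p = 0.606).

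Uptake could not be assessed. Gat (FBgn0039915, chromosome 4, 629691 to 635350) is listed at 0 in all 6 libraries, and so are all 111 listed genes of chromosome 4. A chromosome without a single count is no measure of expression, so no level and no limit is given for Gat.

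The breakdown enzymes had the highest fold changes of the 9 genes, and neither passed the test. Whether their fold changes differed from those of the other genes was not tested. Gabat (FBgn0036927, arm 3L, 19997714 to 20000686), which moves the amino group of GABA to a keto acid, was at 275, 207 and 243 CPM in Kdm3 KO, against 234, 202 and 196 CPM in wBerlin. Kdm3 KO replicate 2 was within the wBerlin range and the other 2 above it. The log2 fold change was 0.20 (SE 0.13, 95% interval −0.09 to 0.48, adjusted p = 0.56). Gabat shares 29 exon bases with Tom20 on the opposite strand (1.24% of its exon length).

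Ssadh (FBgn0039349, arm 3R, 25624805 to 25626924), which oxidises succinic semialdehyde to succinate, was at 170, 125 and 158 CPM in Kdm3 KO, against 133, 117 and 122 CPM in wBerlin. Replicates 1 and 3 of Kdm3 KO were above all wBerlin libraries, and replicate 2 lay between wBerlin replicates 1 and 3. Its means were 151 ± 23.2 and 124 ± 8.16 CPM (SD, n = 3 each), 1.22-fold, with a log2 fold change of 0.28 (SE 0.12, unadjusted p = 0.0468, adjusted p = 0.332). Without Kdm3 KO replicate 2 it was called (log2 fold change 0.41, adjusted p = 0.0361), and its adjusted p was 0.0202 to 0.653 over 16 alternatives. The level in that library depended on the scaling, since its TMM factor, by which library size is multiplied, was 1.098 and those of the other 5 were 0.942 to 0.997. On total counts Ssadh was at 167, 137 and 149 CPM in Kdm3 KO, against 131, 117 and 122 CPM in wBerlin. The groups then no longer overlapped, as for 13.2% of all tested genes in that direction, and the gene was still not called (adjusted p = 0.109).

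The count of called GABA genes differed between sets of libraries. With both wBerlin replicate 1 and Kdm3 KO replicate 2 left out, VGAT, Gabat and Ssadh were higher in Kdm3 KO, with log2 fold changes of 0.34, 0.38 and 0.45 and adjusted p of 0.0462, 0.0482 and 0.0202, so 3 of 9 GABA genes were called, where 7.71% of all tested genes were. That pair of libraries had been singled out from earlier results on these data, so the 3 calls carry no independent weight. In that fit 606 genes were higher and 476 lower over the whole table, against 303 and 129 with all libraries. Without only Kdm3 KO replicate 2 there was 1 called GABA gene, Ssadh (5.13% of all tested genes), and without only wBerlin replicate 1 there were 0 (5.11% of all tested genes).

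**Figure D2:**
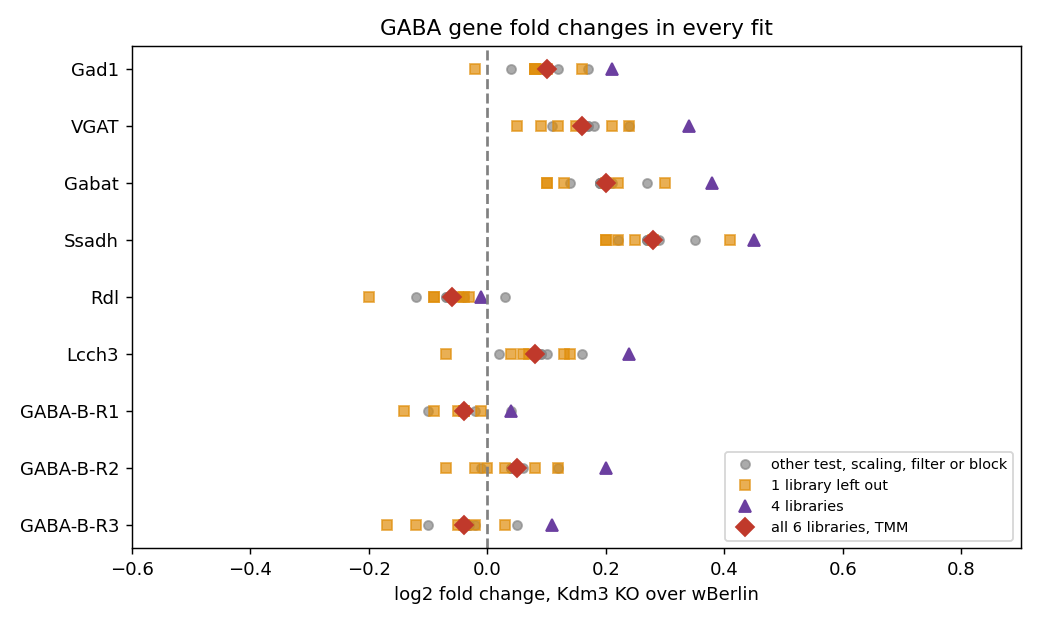
Log2 fold change of each tested GABA gene, Kdm3 KO over wBerlin, with all 6 libraries and TMM scaling (red diamond), with another test, scaling, filter or the replicate block (grey), with 1 library left out (orange) and in the 4 libraries without wBerlin replicate 1 and Kdm3 KO replicate 2 (purple triangle). VGAT, Gabat and Ssadh were above 0 in each of the 16 alternatives, from 0.05 to 0.45, while the receptor genes lay on both sides of 0.

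Glial markers were read beside the uptake and breakdown genes. The summed level of 9 glial markers was 2340 to 2839 CPM in Kdm3 KO and 2357 to 2465 CPM in wBerlin, with none of the 9 at 0. Of the markers, 7 had a positive and 2 a negative log2 fold change, and 0 were called. The gene alrm, found in astrocyte-like glia, was at 168, 124 and 155 CPM in Kdm3 KO, against 118, 100 and 99.4 CPM in wBerlin (log2 fold change 0.49, adjusted p = 0.0781). It did not pass the test, although its groups did not overlap. Gli, a septate junction gene of glia, was at 69.8, 63.1 and 69.1 CPM in Kdm3 KO, against 78.3, 88.2 and 95.4 CPM in wBerlin (log2 fold change −0.37, adjusted p = 0.087). For loco the levels were 83.6, 72.9 and 80.0 CPM in Kdm3 KO, against 88.5, 89.5 and 91.8 CPM in wBerlin (log2 fold change −0.19, adjusted p = 0.367). For these 2 markers the groups did not overlap either, in the direction opposite to alrm. Of the 9 markers, 1 was thus higher and 2 lower without overlap, against 18.7% of all tested genes in either direction. The general glial gene repo had a log2 fold change of 0.05 (adjusted p = 0.898). Whether glial RNA contributed to the levels of Gabat and Ssadh was not tested. In bulk RNA of heads, more cells of a type and more RNA per cell cannot be told apart.

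**Figure D3:**
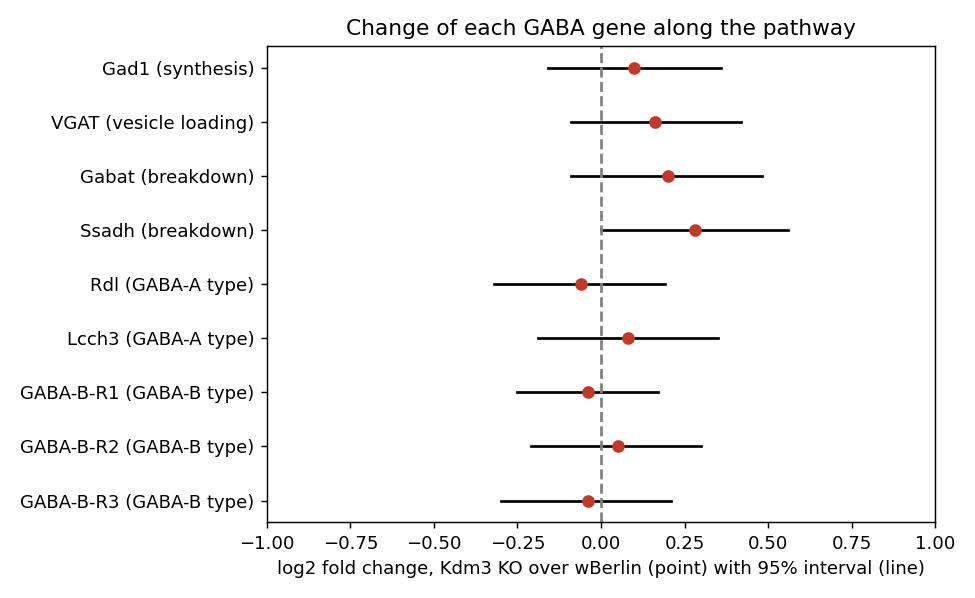
Log2 fold change of each tested GABA gene, Kdm3 KO over wBerlin, with its 95% interval (line), ordered from synthesis through vesicle loading and breakdown to the receptors. The points run from −0.06 for Rdl to 0.28 for Ssadh, and the 5 receptor genes lie between −0.06 and 0.08.

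Neither ionotropic receptor gene passed the test. Rdl (FBgn0004244, arm 3L, 9145838 to 9182149), the subunit of the GABA-gated chloride channel that is the target of cyclodiene insecticides, was at 312, 334 and 316 CPM in Kdm3 KO, against 374, 343 and 289 CPM in wBerlin. All 3 Kdm3 KO libraries lay inside the wBerlin range. The log2 fold change was −0.06 (SE 0.12, 95% interval −0.32 to 0.19, adjusted p = 0.858), and 0.03 with scaling to neuron markers.

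Lcch3 (FBgn0010240, arm X, 15925105 to 15928529), a subunit that forms GABA-gated channels with Grd in heterologous cells, was at 39.4, 35.4 and 38.7 CPM in Kdm3 KO, against 41.1, 30.1 and 36.2 CPM in wBerlin. Again all 3 Kdm3 KO libraries fell within the wBerlin range. The log2 fold change was 0.08 (SE 0.12, 95% interval −0.19 to 0.35, adjusted p = 0.825). Of the exon bases of Lcch3, 31.32% are shared with Ranbp16 or asRNA:CR45000 on the opposite strand. The sources used here do not say whether the authors counted by strand, so the level of Lcch3 is uncertain. Ranbp16 was at 90.1 ± 7.79 CPM in Kdm3 KO and 80.2 ± 4.89 CPM in wBerlin (SD, n = 3 each, adjusted p = 0.504).

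The metabotropic receptor genes did not pass the test either. GABA-B-R1 (FBgn0260446, arm 2L, 15016331 to 15034704), the GABA-binding partner of the receptor dimer, was at 139, 131 and 136 CPM in Kdm3 KO, against 150, 128 and 139 CPM in wBerlin. Its log2 fold change of −0.04 had the narrowest interval of the 9 genes (SE 0.09, 95% interval −0.25 to 0.17, adjusted p = 0.89). The other partner, GABA-B-R2 (FBgn0027575, arm 3R, 21770333 to 21775840), which couples the dimer to G proteins, was at 216, 181 and 208 CPM in Kdm3 KO, against 217, 177 and 191 CPM in wBerlin (log2 fold change 0.05, SE 0.11, 95% interval −0.21 to 0.30, adjusted p = 0.903). GABA-B-R3 (FBgn0031275, arm 2L, 749945 to 762399), a further receptor gene without a place in that dimer, was at 63.5, 61.7 and 64.8 CPM in Kdm3 KO, against 76.4, 61.6 and 57.7 CPM in wBerlin (log2 fold change −0.04, SE 0.11, 95% interval −0.30 to 0.21, adjusted p = 0.909). For all 3 receptor genes the Kdm3 KO libraries lay within the wBerlin range. With scaling to neuron markers the log2 fold changes of GABA-B-R1, GABA-B-R2 and GABA-B-R3 were 0.04, 0.12 and 0.05. Ssadh and GABA-B-R2 are the GABA genes on the same arm as Kdm3, and lie 16.1 and 12.25 Mb from it.

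Mean levels per length were ordered alike in both genotypes. Per kb of exon, Gad1 was the most abundant of the 9 transcripts, at 215 ± 13.6 CPM per kb in Kdm3 KO and 200 ± 19.0 CPM per kb in wBerlin (SD, n = 3 each). It was followed by Gabat at 104 ± 14.6 and 90.4 ± 8.67 CPM per kb and by Ssadh at 80.5 ± 12.4 and 66.3 ± 4.35 CPM per kb. VGAT was at 56.1 ± 4.92 and 50.1 ± 6.11 CPM per kb, and GABA-B-R2 at 50.5 ± 4.62 and 48.9 ± 5.18 CPM per kb. The ranges of VGAT and GABA-B-R2 overlapped in both genotypes, so their order is not resolved, and those of Gabat and Ssadh overlapped in Kdm3 KO. Rdl was at 35.6 ± 1.33 and 37.3 ± 4.78 CPM per kb, GABA-B-R1 at 24.0 ± 0.718 and 24.7 ± 1.90, and Lcch3 at 19.9 ± 1.14 and 18.8 ± 2.89. The lowest was GABA-B-R3, at 9.01 ± 0.225 CPM per kb in Kdm3 KO and 9.27 ± 1.40 CPM per kb in wBerlin. Both dimer partners were above GABA-B-R3 in every library, and GABA-B-R2 was above GABA-B-R1. The exon length is the union over all annotated transcripts, so a gene with many long isoforms is set low on this scale.

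**Figure D4:**
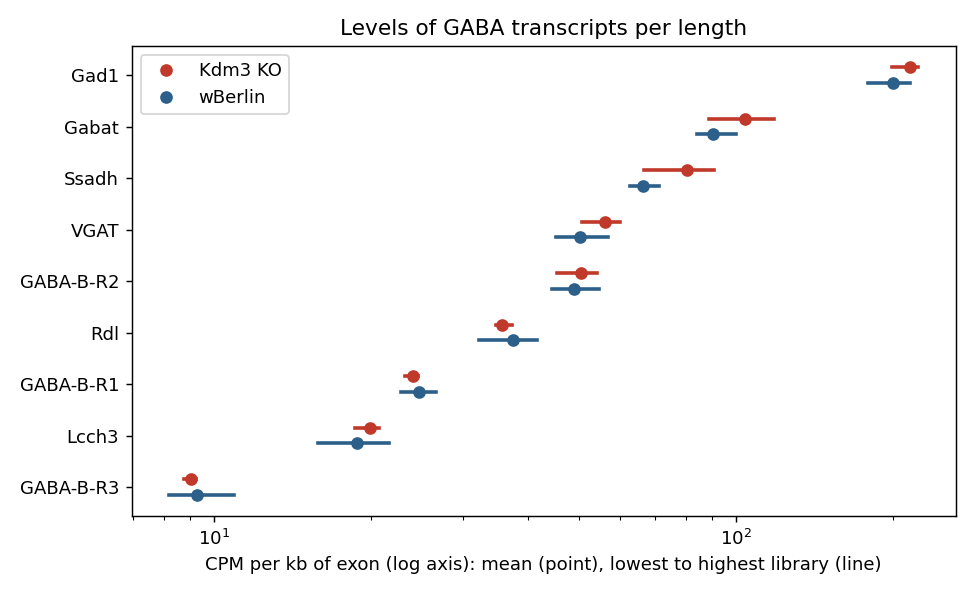
Level of each tested GABA transcript in CPM per kb of exon (log axis) for Kdm3 KO (red, upper) and wBerlin (blue, lower), as the mean (point) and the range from lowest to highest library (line, n = 3). The order of the means is the same in both genotypes, from Gad1 at 215 and 200 CPM per kb to GABA-B-R3 at 9.01 and 9.27 CPM per kb. The ranges of VGAT and GABA-B-R2 overlap in both genotypes, and those of Gabat and Ssadh in Kdm3 KO.

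Ratios of 2 transcripts within a library do not depend on the scaling, and 5 were compared between the genotypes. Each library held 2.99, 3.55 and 3.37 counts of Gad1 for 1 count of Gabat in Kdm3 KO replicates 1, 2 and 3, against 3.4, 3.26 and 3.89 in wBerlin. The log2 ratio of synthesis to breakdown differed by −0.09 (exact permutation test, two-sided, p = 0.5). VGAT to Gad1 was 0.197, 0.186 and 0.191 in Kdm3 KO, against 0.194, 0.185 and 0.171 in wBerlin, a log2 difference of 0.07 (exact permutation p = 0.4). Gad1 to VGlut, the vesicular transporter of glutamatergic neurons, was 1.34, 1.43 and 1.39 in Kdm3 KO, against 1.3, 1.35 and 1.44 in wBerlin (log2 difference 0.02, exact permutation p = 0.8). This ratio lay between 1.3 and 1.44 in all 6 libraries.

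Between the receptor subunits, Rdl to Lcch3 was 7.9, 9.45 and 8.16 in Kdm3 KO, against 9.1, 11.4 and 7.98 in wBerlin (log2 difference −0.15, exact permutation p = 0.6). GABA-B-R1 to GABA-B-R2 was 0.643, 0.724 and 0.655 in Kdm3 KO, against 0.689, 0.727 and 0.727 in wBerlin (log2 difference −0.09, exact permutation p = 0.2). For all 5 ratios the groups overlapped and the adjusted p over the 5 was 0.75 or 0.8. With 3 libraries against 3 the smallest p that this test allows is 0.1, so it could not have passed the threshold.

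Among the neighbours of the pathway, 1 gene was called higher in Kdm3 KO with all 6 libraries, a glutamine synthetase that uses glutamate. Of 9 tested genes of glutamate supply and the GABA shunt, 1 was higher and 0 lower, where 2.15% and 0.917% of all tested genes were. At an unadjusted p under 0.05 there were 4 higher and 2 lower (14.6% of all tested genes in either direction), and the median over the 9 was 0.17 (log2 fold change), against 0.04 over all genes. Glutamine synthetase 1, Gs1, which makes glutamine from glutamate in mitochondria, was at 334, 273 and 369 CPM in Kdm3 KO, against 221, 215 and 215 CPM in wBerlin. Every Kdm3 KO library lay above every wBerlin library. Gs1 rose 1.5-fold (log2 fold change 0.59, SE 0.12, adjusted p = 0.0336). The call ended without Kdm3 KO replicates 1 or 3 or wBerlin replicates 2 or 3 (adjusted p 0.0899, 0.0959, 0.0975 and 0.0679), at log2 fold changes of 0.49 to 0.57. Gs2, the glutamine synthetase of glia, was at 1362 ± 136 CPM in Kdm3 KO and 1214 ± 156 CPM in wBerlin (SD, n = 3 each, adjusted p = 0.671).

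Of the same 9 genes, 4 had groups that did not overlap, all 4 higher in Kdm3 KO. The share over all tested genes was 18.7% in either direction. The 4 were Gs1, CG5618 and the aspartate aminotransferases Got1 and Got2, which were named after their values were seen. Got1 was at 517, 350 and 514 CPM in Kdm3 KO, against 317, 305 and 296 CPM in wBerlin (log2 fold change 0.59, adjusted p = 0.0762). Got2 was at 561, 374 and 628 CPM in Kdm3 KO, against 303, 349 and 251 CPM in wBerlin (log2 fold change 0.79, adjusted p = 0.0652). Neither passed the test, and both were called without Kdm3 KO replicate 2 (adjusted p = 0.0028 for Got1 and 0.00892 for Got2), the lowest Kdm3 KO library for each. Both also passed with DESeq2 (adjusted p = 0.000896 and 0.000216), with upper quartile, total count or neuron marker scaling and with the filter of 5 CPM. Neither passed with limma voom (adjusted p = 0.0839 for Got1 and 0.0699 for Got2). The same held for RLE scaling (adjusted p = 0.067 and 0.0631) and for no filter on low counts (0.0726 and 0.0659). With any other single library left out neither was called (adjusted p 0.093 to 0.213). The replicate block called Got1 alone (adjusted p = 0.0416, against 0.0578 for Got2). The fat body, another site of amino acid metabolism in the head, had a summed level of its 10 markers of 20089 to 25919 CPM in Kdm3 KO, against 9643 to 15496 CPM in wBerlin, with apolpp at 0 in all libraries (a chromosome 4 gene). Most of that sum was yolk protein RNA, with Yp1, Yp2 and Yp3 at means of 2903, 7221 and 10095 CPM in Kdm3 KO, against 1628, 4131 and 4446 CPM in wBerlin. Of the 9 fat body markers tested, 2 were higher, Yp3 and Pepck2, and 1 was lower, to (log2 fold change −0.79, adjusted p = 0.0326), while Lsp2 and Lpin had log2 fold changes of −0.10 and −0.05. Its part in the levels of Gs1, Got1 and Got2 was not tested.

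Other ligand-gated chloride channels were not called. Of 10 tested genes 0 were higher and 0 lower (0 and 0 at an unadjusted p under 0.05, 0 by DESeq2 or limma voom), and the median log2 fold change was 0.14. The lowest p values were those of pHCl-1, a pH-sensitive channel gene, at 151 ± 8.95 CPM in Kdm3 KO and 174 ± 8.10 CPM in wBerlin (SD, n = 3 each, adjusted p = 0.344), and of alka, at 27.3 ± 1.77 and 32.5 ± 4.29 CPM (SD, n = 3 each, adjusted p = 0.361). The call count was 1 without wBerlin replicate 1, where alka was lower (adjusted p = 0.0348).

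Genes that set the chloride gradient, hold receptors at synapses or act downstream of GABA-B receptors were not called either. Of 15 tested genes 0 were higher and 0 lower (0 and 0 unadjusted, 0 by DESeq2 or limma voom), with a median log2 fold change of 0.01. The lowest p values were those of Irk3, an inwardly rectifying potassium channel gene, at 18.9 ± 2.97 CPM in Kdm3 KO and 15.4 ± 1.56 CPM in wBerlin (SD, n = 3 each, adjusted p = 0.362), and of CASK, a synaptic scaffold gene, at 318 ± 25.0 and 366 ± 35.4 CPM (SD, n = 3 each, adjusted p = 0.483). With wBerlin replicate 1 and Kdm3 KO replicate 2 both left out, Irk3 was higher (adjusted p = 0.0369).

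**Figure D5:**
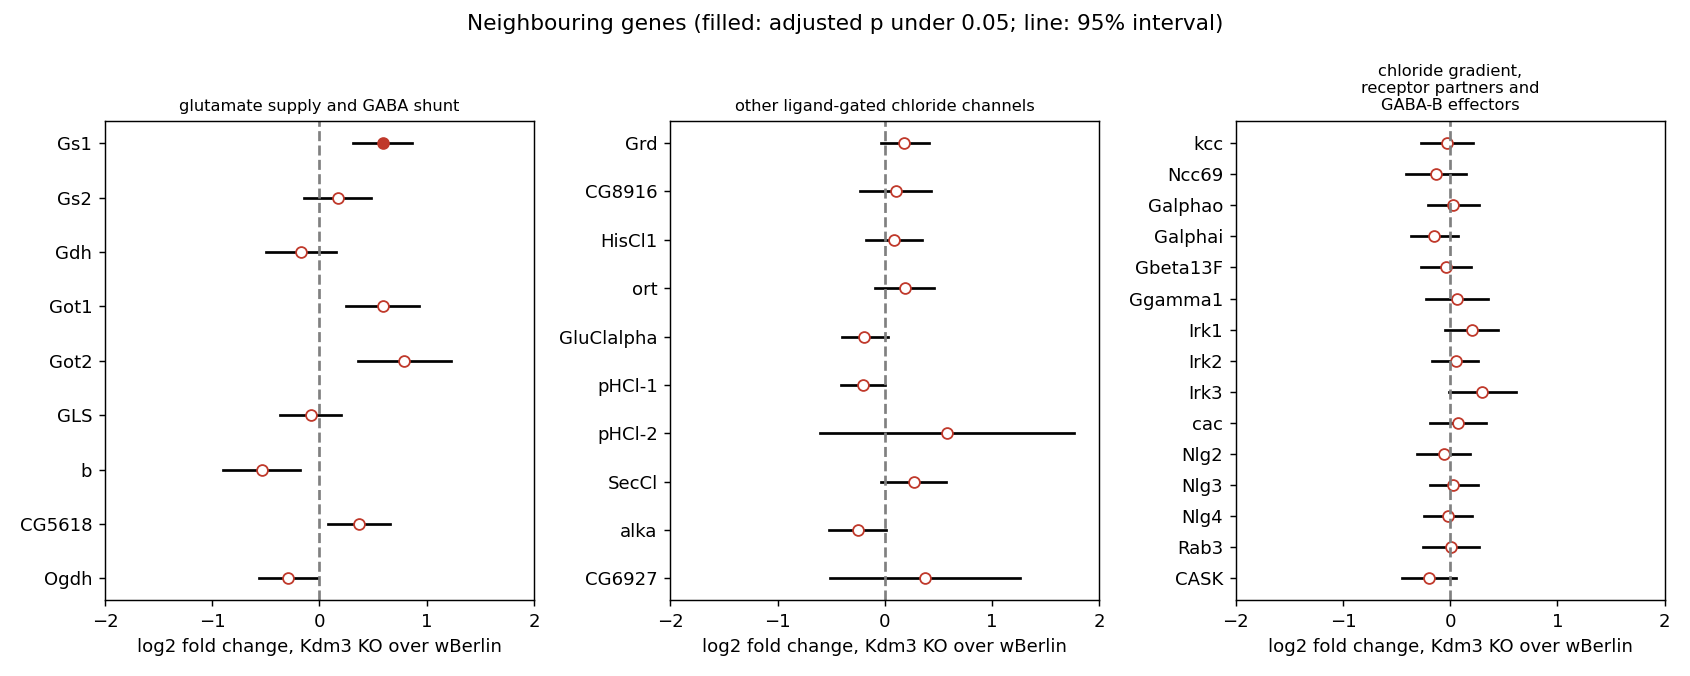
Log2 fold change, Kdm3 KO over wBerlin, with its 95% interval (line) for 9 genes of glutamate supply and the GABA shunt, 10 other ligand-gated chloride channels and 15 genes of the chloride gradient, receptor partners and GABA-B effectors. The single filled point is Gs1 at 0.59, the only one of these genes with an adjusted p under 0.05, and the widest intervals belong to the low genes pHCl-2 and CG6927.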

How the data were processed

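The authors deposited raw read counts per gene and library. Per the submitters' processing notes, the tools were STAR, SAMtools, HTSeq and DESeq2 with genome build BDGP6. The sources used here give no versions, settings or strand use. From the deposited counts, the 14069 genes passing filterByExpr were fitted by genotype alone with edgeR 4.0.16 (R 4.3.3, TMM scaling, glmQLFit and glmQLFTest, two-sided, Benjamini-Hochberg adjustment over all tested genes, threshold 0.05). Every adjusted p is from this test unless another is named. The fit was run on simulated counts with a smaller spread between libraries than these data (biological coefficient of variation 18.2% here). That run therefore does not show how the fit performs at the spread of these libraries. Standard errors are the log2 fold change over the root of the F statistic, and 95% intervals use its degrees of freedom. Within-library ratios of counts were compared with exact permutation tests. Alternatives were DESeq2 1.42.0, limma 3.58.1 voom, other scalings and filters, a replicate block and left-out libraries. Neuron marker scaling used the summed counts of 10 neuron genes. Positions and exon lengths come from Ensembl release 115 (BDGP6). Symbols listed as Nc73EF, CG12344 and CG7589 matched Ogdh, alka and SecCl by synonym, and ebony was not matched. Total counts of 19850981 to 28237382 per library put 3 counts at 0.106 to 0.151 CPM, which covers counting error only. No library was a copy of another of its group (chi-square over its degrees of freedom 15.4 to 60.2). The named genes were the 10 GABA genes, Kdm3, and of each neighbouring list up to 4 called genes by p, or 2 by p where none was called. Other genes given by name were partners in a ratio or overlapping genes, or were picked from the lists after their values were seen. Members and lists were chosen with earlier results of these data known.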

Additional observations from a re-analysis of the deposited data

How the results depend on the processing

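The count of called GABA genes was 0 in 14 of 16 alternatives, 1 without Kdm3 KO replicate 2, and 3 when wBerlin replicate 1 was dropped as well, which leaves 4 libraries. With 1 library left out it was 0 to 1, and the median log2 fold change of the GABA genes was −0.07 (without wBerlin replicate 2) to 0.13, against 0.21 in the 4 libraries. The cause of these changes was not tested.

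Directions of single genes near 0 turned in 11 of 144 fits. With 1 library left out, log2 fold changes were −0.02 to 0.16 for Gad1, −0.07 to 0.14 for Lcch3 and −0.07 to 0.12 for GABA-B-R2, all lowest without wBerlin replicate 2, and −0.17 to 0.03 for GABA-B-R3, highest without wBerlin replicate 1. GABA-B-R2 was also at −0.02 without wBerlin replicate 3. The others that turned were GABA-B-R2 with no filter on low counts (−0.01), Rdl (0.03), GABA-B-R1 (0.04) and GABA-B-R3 (0.05) with neuron marker scaling, and GABA-B-R1 (0.04) and GABA-B-R3 (0.11) in the 4 libraries. None of these was called. Neuron marker scaling put the median of all genes at 0.112. The log2 ratio of Gad1 to VGlut was −0.01 without wBerlin replicate 1, 0.06 without wBerlin replicate 3 and −0.03 in the 4 libraries.

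Over all genes 432 were called, 924 with DESeq2, 768 with the filter of 5 CPM, 779 with the replicate block, 1082 in the 4 libraries and 243 to 735 with 1 library left out. Called genes of glutamate supply numbered 4 with DESeq2 and in the 4 libraries, 3 with upper quartile, total count or neuron marker scaling, the filter of 5 CPM or the replicate block, and 0 to 3 with 1 library left out. The other chloride channels had 0 to 1 with 1 library left out, and the effector list 1 in the 4 libraries. Deviations of same-numbered libraries correlated at 0.342, 0.248 and −0.05, and those of differently numbered libraries at −0.326 to 0.18. Whether the replicate numbers pair the libraries is not settled by these values. The replicate block called 0 GABA genes.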

Other observations

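Markers of other transmitter classes, measured beside Gad1 and VGAT, gave 0 of 9 called genes and a median log2 fold change of −0.08. The cholinergic genes VAChT and ChAT were at 442 ± 27.4 and 134 ± 9.60 CPM in Kdm3 KO, against 467 ± 34.4 and 138 ± 9.72 CPM in wBerlin (SD, n = 3 each). The black gene b, a relative of Gad1 that decarboxylates aspartate, was at 71, 76.1 and 90.3 CPM in Kdm3 KO, against 87.5, 124 and 135 CPM in wBerlin. It did not pass edgeR's quasi-likelihood test (log2 fold change −0.54, adjusted p = 0.123), and DESeq2 called it lower (adjusted p = 0.012). CG5618, another gene listed with the pathway, was at 146, 139 and 194 CPM in Kdm3 KO, against 119, 125 and 127 CPM in wBerlin (adjusted p = 0.199). Its groups did not overlap, as for 18.7% of all tested genes in either direction.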
